A study of Mus musculus with 6 samples.

Results

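Elf3, Ehf, Elf5 and Spdef encode ETS transcription factors that are known for their expression in epithelia, and these 4 genes were taken by name from the 21911 protein-coding genes of the annotation. Open chromatin around them was mapped in mouse palatal shelves of strain C57BL/6 at embryonic day E14.5 by ATAC-seq, a method that tags DNA where a transposase can reach it. There were 3 libraries of palatal epithelium, with basal and periderm cells together, and 3 libraries of palatal mesenchyme, the tissue left after trypsin treatment and removal of the epithelium by hand. Strain and stage were shared by both tissues, no mutation or drug is named for either, and each library held about 20000 cells pooled from several animals. The sources differ on that pool, with 3 embryos in the series design, 5 palatal shelves in the treatment protocol and yet another figure in the methods of the study. For each gene, peaks with a midpoint in the gene body or within 100 kb of the start site were counted, which gave every member a window of 200001 bp.

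ETS proteins bind DNA through a winged helix-turn-helix domain that recognises sites with a GGAA core. Most members of the family are expressed in many cell types or in blood and vessels, whereas Elf3, Ehf, Elf5 and Spdef are found mainly in epithelia. Elf3 acts in the differentiation of the gut lining and other epithelia, Ehf in stratified and glandular epithelia such as epidermis, Elf5 in the secretory cells of the mammary gland and in the trophoblast, and Spdef in goblet cells and other mucus-secreting cells. Grainyhead-like proteins (Grhl1, Grhl2 and Grhl3) are further regulators of epithelial genes. The palatal epithelium consists of basal cells covered by the periderm, a flat outer layer.

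Epithelium lists held 270003 to 349322 peaks and mesenchyme lists 295141 to 341741, covering 125 to 169 Mb in epithelium and 144 to 164 Mb in mesenchyme, with a smallest peak of 199 bp. The depth in reads is unknown and peaks carry no height. Whether a weakly open region was listed depended on the authors' peak threshold, and its absence from a list does not show that it was closed. Both measures below, peaks and the bases they cover, were therefore scaled to the mean list. Labelled tissues were checked with marker genes. Of 10 epithelium markers, 5 had more covered bases in epithelium by limma (Trp63, Krt5, Krt14, Cdh1 and Esrp1) and none had fewer, with summed levels of 336828 to 366203 bp in epithelium and 282136 to 309214 bp in mesenchyme. Of 10 mesenchyme markers, 3 had fewer (Prrx1, Col1a1 and Lhx8) and none more, with sums of 214985 to 229600 bp in epithelium and 251185 to 269153 bp in mesenchyme. Over all genes tested, 6.08% were called higher and 7.38% lower by covered bases. By peaks 1 gene of each list was called, Trp63 higher and Prrx1 lower in epithelium. Sums over 5 endothelial markers were 101261 to 114915 bp in epithelium and 105054 to 119809 bp in mesenchyme, with Tek higher in epithelium and none lower. Sums over 5 immune markers were 212751 to 213140 bp in epithelium and 221407 to 230355 bp in mesenchyme, with Fcgr1 higher and Cd68 lower in epithelium. A marker's window also holds peaks of its neighbours, so no marker stood at 0, and the part of other cell types in the results below was not tested. In bulk tissue, fewer cells with an open region and less opening per cell cannot be told apart.

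The 4 genes lie at 3 places of mm10. Elf3 spans chr1:135253575-135258568 on the minus strand. Ehf spans chr2:103263433-103303278 on the minus strand and Elf5 chr2:103411688-103450989 on the plus strand, so that their start sites face away from each other 108410 bp apart and their windows share 91591 bp. Spdef spans chr17:27714352-27728955 on the minus strand. Overlapping peaks of the 6 lists (by 1 bp or more) were joined into regions, and those found in 2 or more libraries were kept, 211 in the 4 windows and 342690 in the genome. Epithelium-only regions are those with peaks from the 3 epithelium libraries and from none of the mesenchyme, and mesenchyme-only regions the converse. There were 8 epithelium-only and 4 mesenchyme-only regions around the 4 genes.

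The sequences shown first are those of the 3 epithelium-only regions of Ehf, because all 3 lay inside introns of the gene itself. Each line gives the central 300 bp on the plus strand, read from GRCm38.p6, the assembly of mm10, with capitals at matches to any of the 8 motifs searched (described with the motif counts).
Ehf region at chr2:103289471-103289852, shown from 103289512 to 103289811: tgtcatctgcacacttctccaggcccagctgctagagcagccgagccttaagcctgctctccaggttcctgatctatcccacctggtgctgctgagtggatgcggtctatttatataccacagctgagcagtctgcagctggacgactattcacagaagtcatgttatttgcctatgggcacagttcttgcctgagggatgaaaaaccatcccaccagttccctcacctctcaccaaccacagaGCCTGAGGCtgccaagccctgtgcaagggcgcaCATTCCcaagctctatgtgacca
Ehf region at chr2:103293205-103294233, shown from 103293569 to 103293868: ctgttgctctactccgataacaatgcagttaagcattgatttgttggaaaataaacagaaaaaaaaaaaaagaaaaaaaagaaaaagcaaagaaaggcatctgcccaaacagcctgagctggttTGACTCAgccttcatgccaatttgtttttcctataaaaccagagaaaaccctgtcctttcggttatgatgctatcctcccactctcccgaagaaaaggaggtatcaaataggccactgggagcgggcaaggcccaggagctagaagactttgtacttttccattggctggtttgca
Ehf region at chr2:103294495-103294898, shown from 103294547 to 103294846: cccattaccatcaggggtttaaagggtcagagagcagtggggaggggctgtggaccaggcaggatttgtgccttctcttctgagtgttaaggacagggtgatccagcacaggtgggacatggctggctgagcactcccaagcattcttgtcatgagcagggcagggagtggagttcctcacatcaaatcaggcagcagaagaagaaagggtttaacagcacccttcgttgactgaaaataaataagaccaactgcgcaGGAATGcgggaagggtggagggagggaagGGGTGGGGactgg
The capitals mark a TFAP2 and a TEAD match in the first sequence, an AP-1 match in the second, and a TEAD and a KLF match in the third.

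For Elf5, 2 of its 4 epithelium-only regions are shown because they held the GRHL matches found among the 8 epithelium-only regions. Both lay between genes, beyond the far end of Elf5 and upstream of Cat.
Elf5 region at chr2:103487550-103488481, shown from 103487866 to 103488165: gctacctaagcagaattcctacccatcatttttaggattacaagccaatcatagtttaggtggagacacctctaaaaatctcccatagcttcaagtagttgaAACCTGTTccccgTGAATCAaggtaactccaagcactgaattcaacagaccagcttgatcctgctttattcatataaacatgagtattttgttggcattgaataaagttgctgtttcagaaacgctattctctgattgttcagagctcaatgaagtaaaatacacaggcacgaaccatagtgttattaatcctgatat
Elf5 region at chr2:103494141-103494832, shown from 103494337 to 103494636: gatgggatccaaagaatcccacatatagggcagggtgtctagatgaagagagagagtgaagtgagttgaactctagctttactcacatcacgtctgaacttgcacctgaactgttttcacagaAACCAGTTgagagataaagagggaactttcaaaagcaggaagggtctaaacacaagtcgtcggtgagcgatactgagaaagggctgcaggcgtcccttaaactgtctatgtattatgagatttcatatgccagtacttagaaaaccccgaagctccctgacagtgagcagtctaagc
The first holds a GRHL match followed by an AP-1 match, and the second a GRHL match. The 250 bases before the start of the RefSeq transcript of Elf5 that begins inside the gene, at chr2:103423818-103424067 on the plus strand, are given because peaks of all 3 epithelium libraries covered this start, with a KLF match in capitals.
Elf5 inner promoter: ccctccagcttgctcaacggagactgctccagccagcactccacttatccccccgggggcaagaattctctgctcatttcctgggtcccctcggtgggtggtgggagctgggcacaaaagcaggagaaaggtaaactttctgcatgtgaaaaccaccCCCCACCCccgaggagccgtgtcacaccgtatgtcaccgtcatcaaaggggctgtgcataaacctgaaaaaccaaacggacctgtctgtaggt
The mesenchyme-only region near Elf3 is given because it was the tissue-only region of the 12 that held ETS matches. Its capitals mark, in order, an ETS, a TFAP2, a second ETS and a FOX match.
Elf3 region at chr1:135291130-135291684, shown from 135291257 to 135291556: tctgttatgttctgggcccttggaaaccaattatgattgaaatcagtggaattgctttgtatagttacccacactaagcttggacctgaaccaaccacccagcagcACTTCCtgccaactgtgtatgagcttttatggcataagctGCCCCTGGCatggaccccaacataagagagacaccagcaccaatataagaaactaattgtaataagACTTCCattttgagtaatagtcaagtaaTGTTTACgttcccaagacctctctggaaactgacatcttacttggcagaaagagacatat
The 250 bases before the RefSeq start of Spdef, at chr17:27728952-27729201 and written 5′ to 3′ on the minus strand, held none of the motifs and are given because fewer epithelium than mesenchyme libraries had a peak over that start.
Spdef promoter: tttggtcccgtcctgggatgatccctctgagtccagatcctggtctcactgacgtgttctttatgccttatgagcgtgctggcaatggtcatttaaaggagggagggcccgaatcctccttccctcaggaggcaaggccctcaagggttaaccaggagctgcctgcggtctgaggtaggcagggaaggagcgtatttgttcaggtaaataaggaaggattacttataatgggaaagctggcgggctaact

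Ehf was the member with more open chromatin in epithelium. Its window held 25, 26 and 20 peaks in the epithelium libraries, against 9, 19 and 22 in the mesenchyme libraries. The lowest count was that of mesenchyme library 1, and the highest mesenchyme count lay above the lowest epithelium count. After scaling the epithelium mean was 24.3 ± 4.05 peaks and the mesenchyme mean 16.2 ± 6.19 (SD, n = 3 libraries). The log2 difference of 0.62 (SE 0.24) did not pass limma (adjusted p = 0.136 over 21736 genes). By peaks, 1.49% of all genes tested were called higher in epithelium and 1.64% lower, and none of the 4 members was called in either direction.

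The bases under those peaks separated the tissues at Ehf only after scaling. They came to 8234, 8820 and 7330 bp in the epithelium libraries, against 2524, 7931 and 5703 bp in the mesenchyme libraries. These raw values overlapped. Scaled values were 9902, 7864 and 7795 bp in epithelium, all above the 2644, 7260 and 5382 bp in mesenchyme, as they were for 14.9% of all genes tested. Covered bases rose by limma (log2 difference 0.82, SE 0.25, adjusted p = 0.0296), a call made in this direction for 6.08% of all genes tested. The exact permutation test, two-sided, gave p = 0.1, the smallest it can reach with 3 against 3 libraries. Leaving out mesenchyme library 1, the lowest, left a log2 difference of 0.43 (adjusted p = 0.203). The call was also lost without epithelium library 1 (adjusted p = 0.119), library 2 (0.0563) or library 3 (0.0586), and it held without mesenchyme library 2 (log2 difference 1.12, adjusted p = 0.00749) or 3 (0.91, adjusted p = 0.0225).

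**Figure D1:**
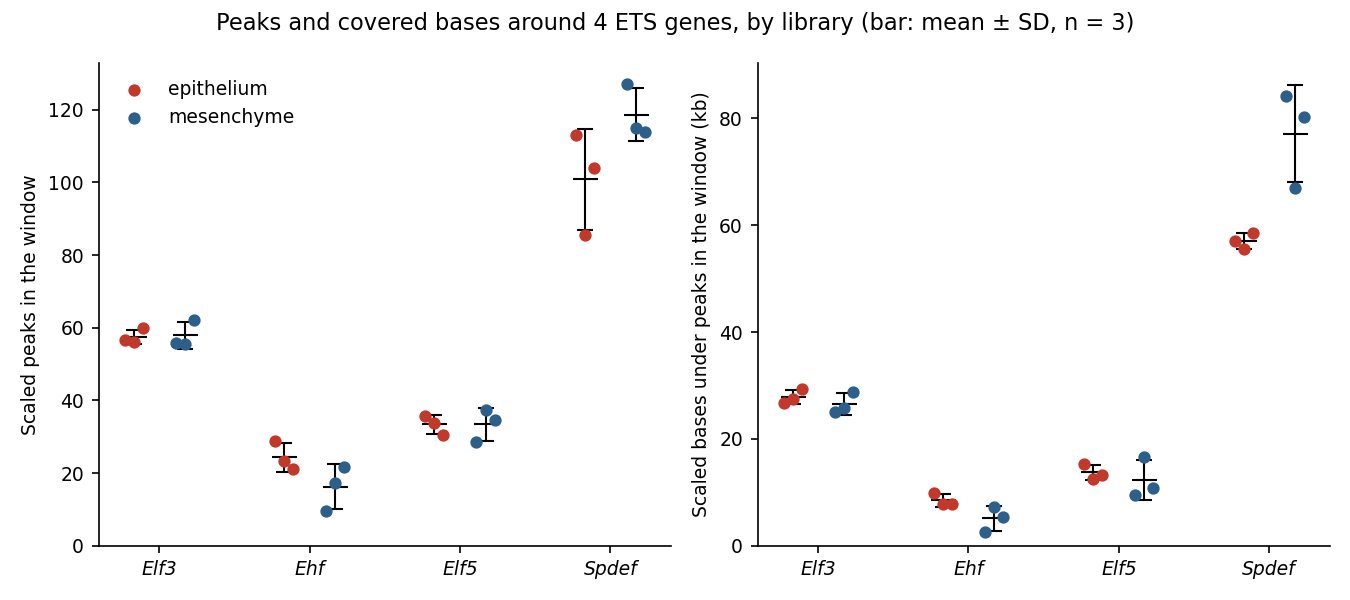
Scaled peaks (left) and scaled bases under peaks in kb (right) in the 200001 bp window of each gene, with 1 point per library, epithelium in red and mesenchyme in blue, and black bars for the mean ± SD (n = 3). The covered bases of Ehf lie between 7795 and 9902 bp in epithelium and between 2644 and 7260 bp in mesenchyme, and those of Spdef lie lower in epithelium than in mesenchyme.

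The difference at Ehf lay in and near the gene. The gene body, 39846 bp long, held 9, 10 and 6 peaks in the epithelium libraries, against 3, 1 and 3 in the mesenchyme libraries. These peaks covered 3412, 3565 and 2056 bp in epithelium and 971, 467 and 957 bp in mesenchyme, before scaling. The groups did not overlap, and the share of all genes whose bodies separate in this way was not computed. With the window reduced to the gene body and 10 kb around the start site, the log2 difference in covered bases was 1.86 (limma adjusted p = 0.00533). That in peaks was 1.44 (adjusted p = 0.0711). In this smaller window 300 genes were called higher in epithelium by covered bases and 160 lower. The number of genes tested in it was not kept, so no share stands beside these counts. In the 91591 bp shared with Elf5, by contrast, there were 10 peaks in each epithelium library and 5, 13 and 17 in the mesenchyme libraries. None of the 12 kept regions in that shared stretch was tissue-only.

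All 3 epithelium-only regions of Ehf lay in its introns, 8582, 9559 and 13616 bp downstream of the start site by their midpoints. The region nearest the start was covered for 402, 354 and 389 bp in the epithelium libraries, the next for 802, 1029 and 468 bp, and the third for 261, 320 and 284 bp. These are the sequences printed first above. By the definition of such regions, none of the 3 mesenchyme libraries had a peak in any of them. Of the 24 kept regions of Ehf, 12.5% were epithelium-only and 0 mesenchyme-only, beside 2.98% and 2.20% of all kept regions. A further 4 regions of the window had a peak in 2 epithelium libraries and in no mesenchyme library, and 3 had the reverse.

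At the start of Ehf, a region of chr2:103302894-103304366 had a peak in all 6 libraries. It was covered for 810, 715 and 1002 bp in the epithelium libraries, against 336, 271 and 227 bp in the mesenchyme libraries. The annotated 5′-most start, chr2:103303278, lay under a peak of 550 bp in epithelium library 1 and of 1002 bp in library 3, and under none in epithelium library 2 or in mesenchyme. Inner starts of Ehf at 103283760 and 103299565 each lay under a peak in epithelium library 1, the second also in mesenchyme library 1. The start at 103302920 lay under a peak of 227 bp in mesenchyme library 3 alone, and no library had a peak over the start at 103290937. No other protein-coding gene starts in the window of Ehf.

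**Figure D2:**
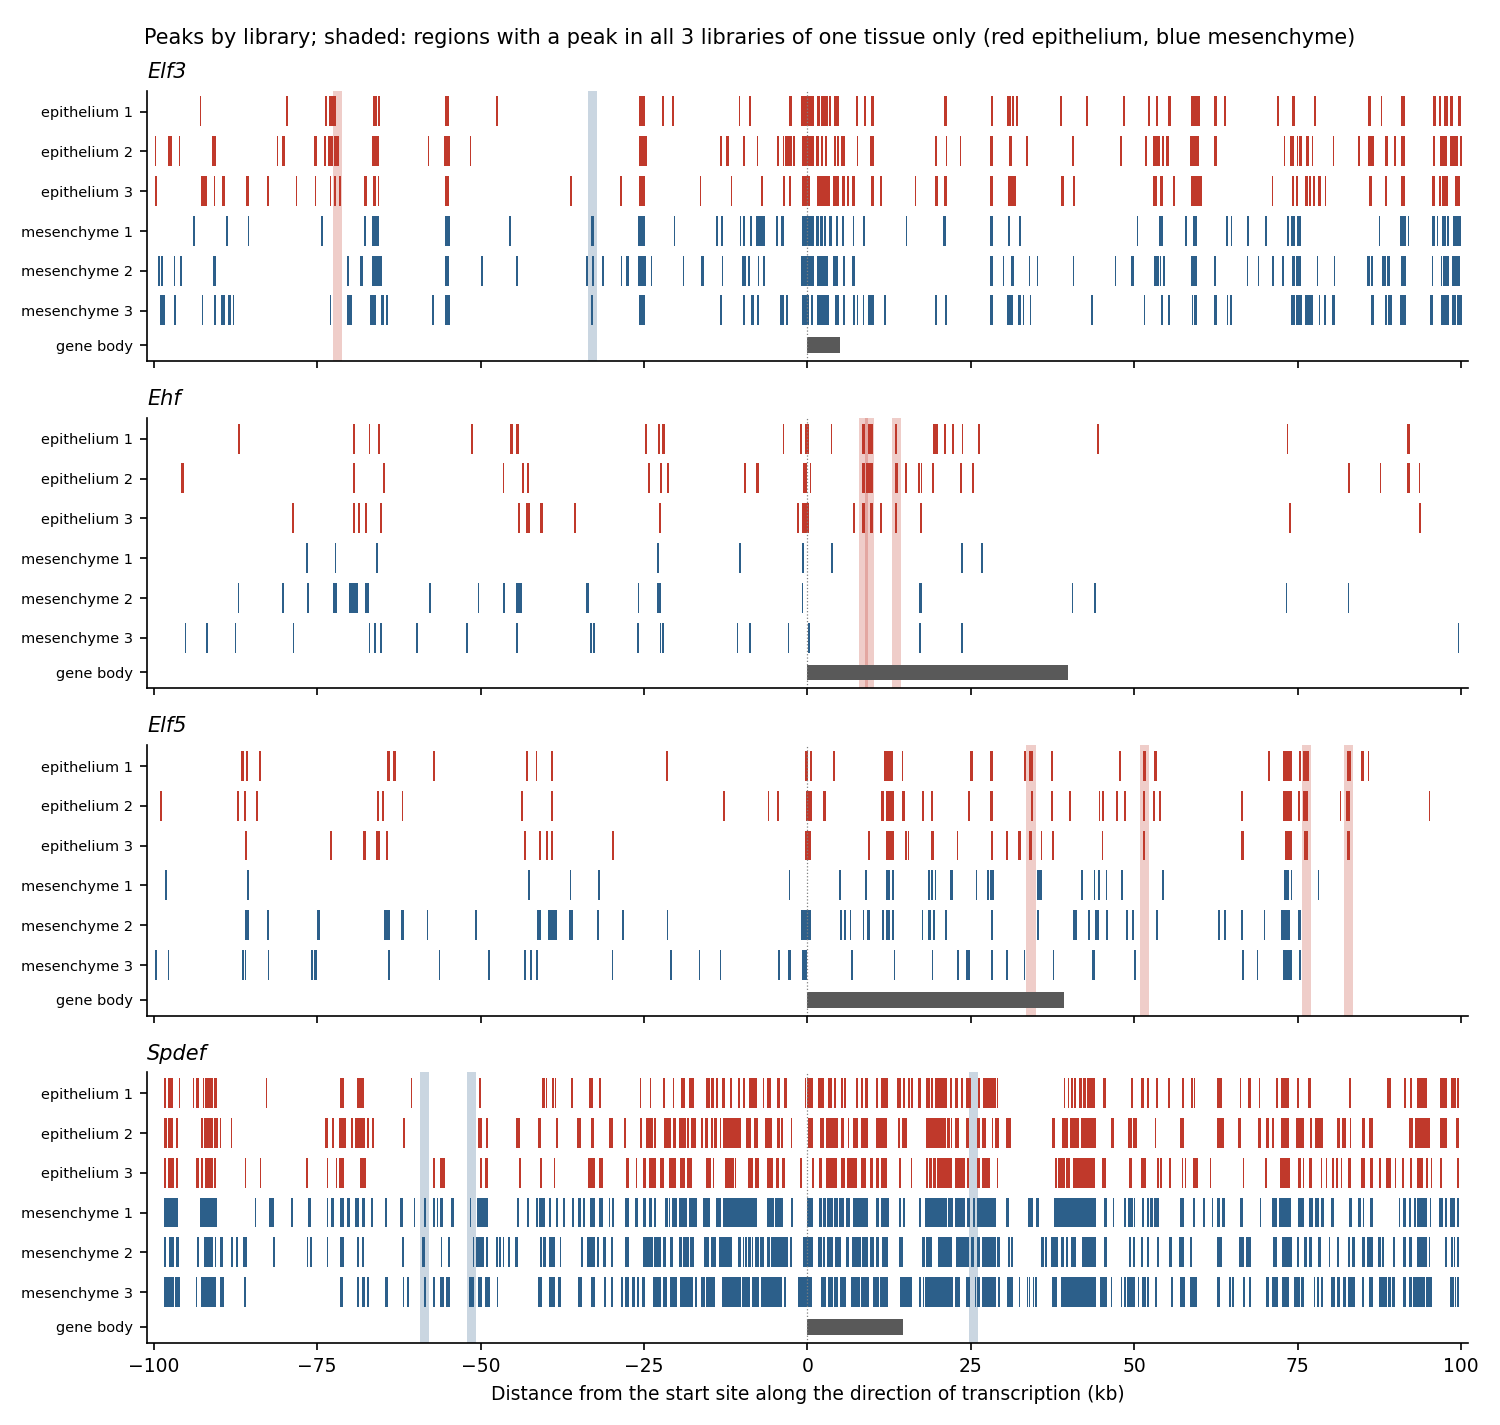
Peaks of each library (rows, epithelium in red above mesenchyme in blue) against the distance from the start site of each gene in kb, along the direction of transcription, with the gene body as a grey bar. Pale strips, widened for visibility, mark the 8 epithelium-only (red) and 4 mesenchyme-only (blue) regions; those of Ehf stand 8582 to 13616 bp after its start.

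Over its whole window Elf5 passed neither test. It held 31, 38 and 29 peaks in the epithelium libraries, against 27, 41 and 35 in the mesenchyme libraries, and the groups overlapped. The scaled epithelium mean was 33.4 ± 2.70 and the mesenchyme mean 33.5 ± 4.53 (SD, n = 3 libraries), with a log2 difference of 0.00 (SE 0.17, limma adjusted p = 0.999). Covered bases were 12707, 14085 and 12486 bp in epithelium and 8993, 18144 and 11497 bp in mesenchyme, where library 2 was the highest of all 6 and library 1 the lowest. The log2 difference was 0.19 (SE 0.18, limma adjusted p = 0.501).

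All tissue-only regions of Elf5 were epithelium-only. Of its 41 kept regions 4 were epithelium-only (9.76%, beside 2.98% of all kept regions) and none was mesenchyme-only (2.20% of all). The first, chr2:103445550-103446245 in an intron of Elf5, 34210 bp after the start, was covered for 696, 321 and 573 bp in the epithelium libraries. The second, chr2:103462978-103463483 in Cat, the gene of the antioxidant enzyme catalase, has its midpoint in an intron and reaches into a coding exon. It was covered for 445, 199 and 328 bp. The other two are the ones printed above, 76328 and 82798 bp from the Elf5 start, with 932, 664 and 693 bp and with 526, 546 and 536 bp in the epithelium libraries. Of the 4, 1 lay in the gene body or within 10 kb of its start site. A further 3 regions of the window had a peak in 2 epithelium libraries and in no mesenchyme library, and 7 had the reverse. More epithelium libraries had a peak in 12 of the 41 regions and more mesenchyme libraries in 11. Cat, whose start lies in the same window, had a log2 difference in covered bases of 0.19 (SE 0.15, limma adjusted p = 0.433).

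The start sites of Elf5 had peaks in more epithelium than mesenchyme libraries. The 5′-most start, chr2:103411688, lay under a peak of 478, 881 and 964 bp in the epithelium libraries. In mesenchyme, library 2 had a peak of 1583 bp over it, and libraries 1 and 3 had none. A peak of 845 bp in mesenchyme library 3 ended just short of this start, at −3 bp. The joined region there, chr2:103410679-103412389, had peaks in 3 epithelium and 2 mesenchyme libraries. The inner start at chr2:103424062 lay under peaks of 954, 1156 and 1230 bp in epithelium. In mesenchyme the peaks over it had 581 and 624 bp in libraries 1 and 2, with none in library 3. The joined region around this start, chr2:103423487-103425113, had a peak in all 6 libraries, with 205 bp in mesenchyme library 3. The inner promoter sequence printed above ends at 103424067 and so includes this start. Over the whole annotation 57.6% of genes had a peak over the 5′-most start in all 6 libraries, 0.402% in all 3 epithelium libraries and no mesenchyme library, and 0.278% in the reverse case. Neither Ehf nor Elf5 fell in any of these classes.

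Elf3 passed neither test. Its window held 49, 63 and 57 peaks in the epithelium libraries, against 53, 61 and 63 in the mesenchyme libraries. The scaled epithelium mean was 57.5 ± 2.02 peaks and the mesenchyme mean 57.9 ± 3.72 (SD, n = 3 libraries), with a log2 difference of −0.01 (SE 0.13, limma adjusted p = 0.981). Covered bases were 22258, 30738 and 27612 bp in epithelium and 23913, 28109 and 30528 bp in mesenchyme, with a log2 difference of 0.07 (SE 0.12, limma adjusted p = 0.734). The start of Elf3, chr1:135258568, lay under a peak in all 6 libraries, of 1392, 1931 and 1289 bp in epithelium and 1863, 1866 and 1152 bp in mesenchyme. The gene body held 5, 6 and 2 peaks in epithelium and 6, 3 and 3 in mesenchyme.

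Of the 65 kept regions of Elf3, 15 had a peak in all 6 libraries (23.1%, beside 19.1% of all kept regions), 1 was epithelium-only and 1 mesenchyme-only. The epithelium-only region, chr1:135329853-135331107, lay upstream at −71912 bp from the start, in an intron of Lmod1, the gene of the muscle protein leiomodin, and was covered for 438, 834 and 757 bp. The next 3 kept regions beyond it also had peaks in more epithelium than mesenchyme libraries. These were chr1:135331192-135331904 in 3 epithelium and 1 mesenchyme libraries, and chr1:135332097-135332450 and chr1:135333548-135333971 in 2 epithelium libraries and no mesenchyme library. The kept region on its other side, chr1:135328291-135329047, had peaks in 2 mesenchyme libraries and no epithelium library. In the whole window 16 regions had more epithelium libraries and 20 more mesenchyme libraries. These were 24.6% and 30.8%, beside 24.7% and 30.0% of all kept regions. The mesenchyme-only region, printed above with its ETS matches, lay upstream at −32839 bp, between genes, and was covered for 535, 291 and 332 bp in mesenchyme. Lmod1, Rnpep, Timm17a and Gpr37l1 start in the same window. Their log2 differences in covered bases were −0.17 for Lmod1, −0.05 for Rnpep, −0.15 for Timm17a and 0.05 for Gpr37l1, and none passed limma.

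Spdef went the other way. Its window held 98, 96 and 99 peaks in the epithelium libraries, against 120, 126 and 115 in the mesenchyme libraries. After scaling, epithelium lay between 85.6 and 113 and mesenchyme between 114 and 127, so that every epithelium library was below every mesenchyme library, as for 13.0% of all genes tested. The reverse held for 9.08% of them and for none of the members. The log2 difference of −0.24 (SE 0.11) did not pass limma (adjusted p = 0.221).

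Covered bases of Spdef fell. They were 47399, 62250 and 55124 bp in the epithelium libraries, against 80388, 73120 and 85050 bp in the mesenchyme libraries. The scaled epithelium mean was 57042 ± 1561 bp and the mesenchyme mean 77139 ± 9059 bp (SD, n = 3 libraries). The groups did not overlap, as for 17.2% of all genes tested in this direction. The log2 difference was −0.43 (SE 0.09, limma adjusted p = 0.00303), a call in this direction for 7.38% of genes tested, and the adjusted p stayed between 0.00166 and 0.0269 when any 1 library was left out. With the window reduced to the gene body and 10 kb around the start site, the log2 difference was −0.28 (adjusted p = 0.343).

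The regions of the Spdef window with more mesenchyme libraries lay over its neighbours and between genes. Of the 93 kept regions in the window, 6 had a peak in more epithelium than mesenchyme libraries and 41 in more mesenchyme than epithelium libraries, or 6.45% and 44.1%, beside 24.7% and 30.0% of all kept regions. The 4 regions placed at Spdef itself had as many epithelium as mesenchyme libraries each, because each had a peak in all 6 libraries. Before scaling, they were covered for 6198, 7631 and 6692 bp in the epithelium libraries, against 8440, 8701 and 9052 bp in the mesenchyme libraries. Of 26 placed at Pacsin1, the gene of a membrane-bending protein, 2 had more epithelium libraries and 13 more mesenchyme libraries. Of 36 placed at D17Wsu92e, 1 had more epithelium libraries and 20 more mesenchyme libraries. Covered bases in the window of D17Wsu92e fell by 0.51 on the log2 scale (SE 0.10, limma adjusted p = 0.00250) and those of Pacsin1 by 0.33 (SE 0.08, adjusted p = 0.00969), in windows that share peaks with that of Spdef. The Pacsin1 call was lost without mesenchyme library 1 (adjusted p = 0.0518) or 3 (0.0686). Rps10 and the RPS10-NUDT3 readthrough, which also start in the window, had log2 differences of −0.30 each (adjusted p = 0.0197 and 0.0195), and their gene models overlap.

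The gene body of Spdef held 12, 11 and 10 peaks in epithelium, against 12, 12 and 8 in mesenchyme, covering 6644, 7970 and 6992 bp against 8639, 8875 and 7659 bp. Its start, chr17:27728955, lay under a peak of 995 bp in epithelium library 1 and under none in libraries 2 and 3, against peaks of 993, 997 and 1393 bp in the mesenchyme libraries. The annotated starts at 27728953 and 27728924 lay under the same peaks and were likewise uncovered in epithelium libraries 2 and 3. The start farthest inside the gene, 27728889, also lay under a peak of 869 bp in epithelium library 2. The 3 mesenchyme-only regions (3.23% of 93, beside 2.20% of all kept regions) lay in introns of Pacsin1, at chr17:27703137-27703843, and of D17Wsu92e, at chr17:27779913-27780652 and chr17:27787267-27787877. They were covered for 303, 366 and 208 bp, for 225, 260 and 739 bp, and for 362, 357 and 261 bp in the mesenchyme libraries. Regions with a peak in all 6 libraries made up 35.5% of the kept regions of Spdef, beside 19.1% of all.

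**Figure D3:**
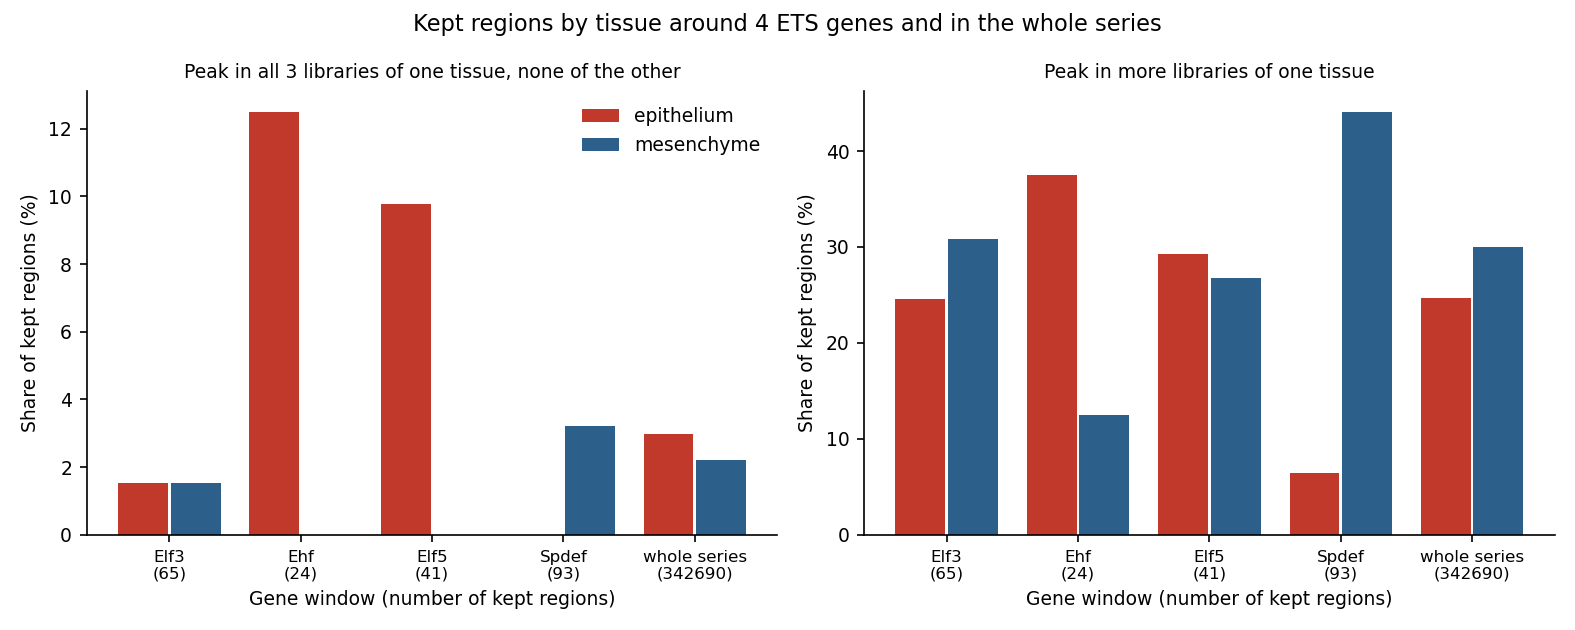
Share of kept regions, in percent, that were epithelium-only or mesenchyme-only (left) and that had a peak in more libraries of one tissue (right), epithelium in red and mesenchyme in blue, for each gene window and the whole series, with the number of kept regions under each name. Ehf (12.5%) and Elf5 (9.76%) have the tallest epithelium-only bars, and Spdef has 44.1% of regions with more mesenchyme libraries.

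Together the 4 windows held 211 kept regions, each counted once, with 3.79% epithelium-only and 1.90% mesenchyme-only. In 40 of them more epithelium libraries had a peak and in 72 more mesenchyme libraries did. The share of epithelium-only regions was thus above that of the series at Ehf and Elf5 and below it at Elf3 and Spdef, with 3, 4, 1 and 0 regions behind it, and it was not tested. The counts depended on the rule. Allowing 1 peak in the other tissue gave 4 and 0 regions for epithelium and mesenchyme at Ehf, 6 and 1 at Elf5, 4 and 6 at Elf3, and 0 and 10 at Spdef. Leaving out 1 library in turn gave 3 to 5 epithelium-only regions at Ehf, 4 to 6 at Elf5, 1 to 4 at Elf3 and 0 to 1 at Spdef, and 0 to 2 mesenchyme-only regions at Ehf, 0 to 4 at Elf5, 1 to 5 at Elf3 and 4 to 8 at Spdef. Over the 4 windows mesenchyme-only regions then outnumbered the others in some cases, with 8 epithelium-only and 14 mesenchyme-only regions without mesenchyme library 1, 9 and 13 without mesenchyme library 2, and 11 and 13 without epithelium library 2. In the whole series the counts were 12884 and 20183 without mesenchyme library 1 and 13681 and 17454 without mesenchyme library 2. Without epithelium library 2 they were 16145 and 13825.

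Motifs were searched on both strands of the central 300 bp of every kept region, as GGAAGT for ETS, AACCNGTT for GRHL, TGANTCA for AP-1, CCNCACCC for KLF, GGAATG for TEAD, GCCNNNGGC for TFAP2, TGTTTAC for FOX, and for TP63 a pair of C(A/T)(A/T)G quartets 6 bp apart. Matches of different motifs were allowed to overlap. None of the 8 epithelium-only regions held the ETS letters, and other sites with a GGAA core were not searched. The ETS letters stood in 17.9% of all kept regions, in 15.2% of all epithelium-only regions and in 35 of the 211 around the members (16.6%). GRHL letters stood in 2 of the 8, both at Elf5, beside 2.29% of all kept regions and 5.33% of all epithelium-only regions. AP-1 letters also stood in 2 of the 8, 1 at Ehf and 1 at Elf5, beside 9.02% of all kept regions and 16.9% of all epithelium-only regions. TEAD letters stood in 2 regions of Ehf, beside 16.9% of all kept regions and 27.1% of all epithelium-only regions. The region at Cat held a TP63 match, inside an exon of Cat. That motif stood in 9.25% of all kept regions and in 14.3% of all epithelium-only regions. The epithelium-only regions in the intron of Elf5 and in Lmod1 held none of the 8 motifs, and neither did the 3 mesenchyme-only regions of Spdef. A match describes these letters and is not a binding site.

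RefSeq promoters, from 250 bases before the start, were at hand for Elf3, for both starts of Elf5 and for Spdef. None held the ETS letters, which stood in 19.7% of 32851 promoters of that length. The Elf3 promoter held a KLF match (14.9% of promoters) that overlapped a TEAD match (12.6%). The outer Elf5 promoter held a TEAD match and the inner one, printed above, a KLF match. The RefSeq starts differ from the annotated ones. The outer Elf5 promoter, chr2:103411848-103412097, thus lies after the annotated 5′-most start, chr2:103411688.

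Of the 22 other ETS genes, 1 was called by peaks and by covered bases, lower in epithelium in both. Over all genes tested, 1.64% were called lower by peaks and 7.38% by covered bases. Etv4, a family member that acts downstream of FGF signalling, had 46, 68 and 57 peaks in the epithelium libraries, against 78, 95 and 77 in the mesenchyme libraries. Its log2 difference was −0.49 by peaks (SE 0.12, limma adjusted p = 0.0161) and −0.55 by covered bases (SE 0.12, adjusted p = 0.00302). By peaks the call was lost without epithelium library 1 (adjusted p = 0.0650), mesenchyme library 1 (0.0529) or mesenchyme library 2 (0.0971), with peaks scaled by chromosome (log2 difference −0.35, adjusted p = 0.109), without scaling (adjusted p = 0.134), with no filter on low values (0.114) and with peaks given to the nearest start site only (0.208). In the window of the gene body and 10 kb the difference by peaks was −0.15 (adjusted p = 0.827). By covered bases the call was lost in that smaller window (−0.28, adjusted p = 0.387). The median log2 difference by peaks was 0.07 over the 22 genes and −0.02 over all genes tested, and 15 of the 22 were positive.

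Of these 22 genes Etv1 had the largest log2 difference by peaks (0.67, SE 0.32, limma adjusted p = 0.260), beside 0.62 for Ehf, with 7, 12 and 11 peaks in epithelium and 4, 9 and 6 in mesenchyme. Next came Elf2 (0.32, SE 0.16, adjusted p = 0.286) and Elf4 (0.30, SE 0.21, adjusted p = 0.475), broadly expressed relatives of the members. At the low end, after Etv4, stood Fli1 (−0.31, SE 0.15, adjusted p = 0.245) and Ets1 (−0.18, SE 0.14, adjusted p = 0.555), both known from vessels and blood. None of these 5 passed the test. By covered bases, limma called Ehf higher in epithelium among the 26 ETS genes, and Spdef and Etv4 lower. Over all genes tested, 6.08% were called higher and 7.38% lower by this measure, so these few calls do not set the family apart.

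**Figure D4:**
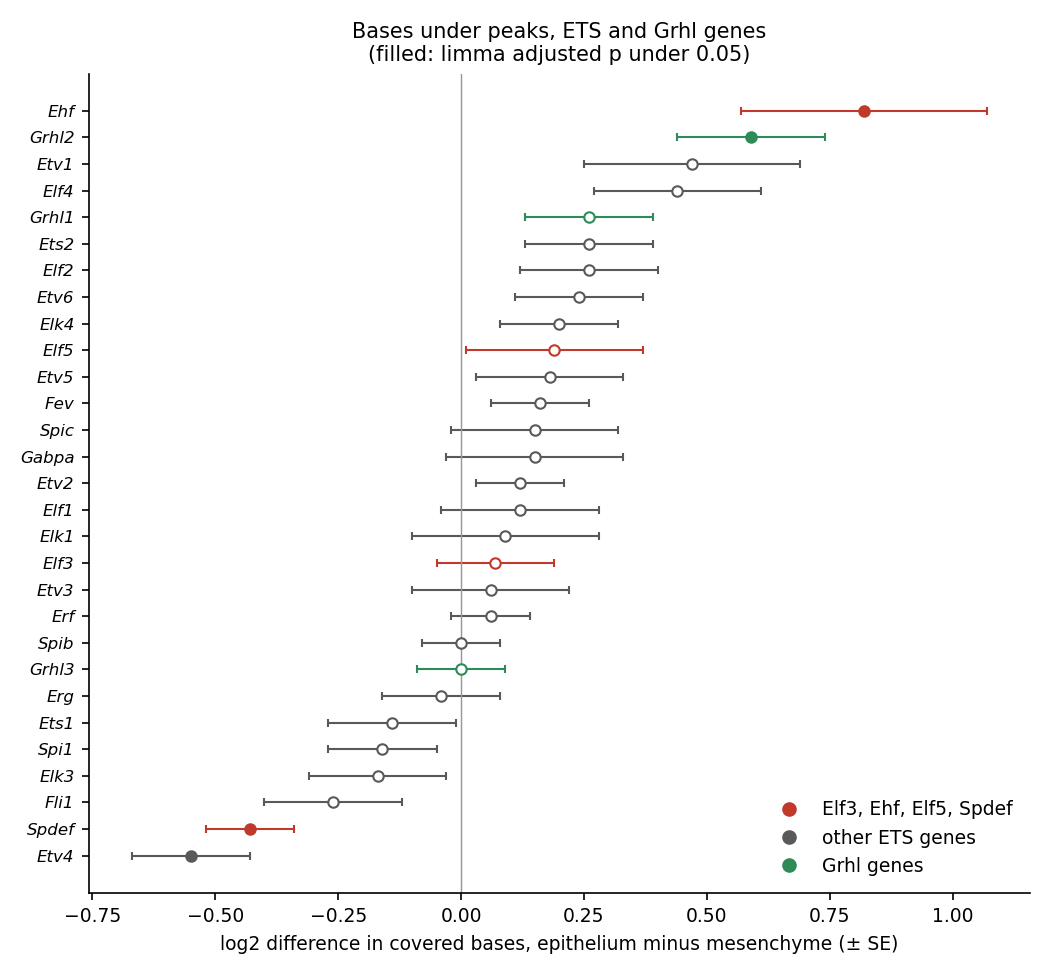
Log2 difference in covered bases, epithelium minus mesenchyme, with its SE, for Elf3, Ehf, Elf5 and Spdef (red), the 22 other ETS genes (grey) and the 3 Grhl genes (green), sorted by size, filled where the limma adjusted p was under 0.05. Ehf stands highest at 0.82 and Etv4 (−0.55) and Spdef (−0.43) lowest.

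Among the Grhl genes, covered bases of Grhl2 rose, with 20335, 26649 and 16250 bp in the epithelium libraries, against 12351, 16988 and 15336 bp in the mesenchyme libraries. These raw values overlapped and the scaled ones did not. The log2 difference was 0.59 (SE 0.15, limma adjusted p = 0.0104), and the call was lost without epithelium library 1 (adjusted p = 0.0599) or 2 (0.0662). Grhl1 had a log2 difference of 0.26 (SE 0.13, adjusted p = 0.191) and Grhl3 of 0.00 (SE 0.09, adjusted p = 0.982). By peaks none of the 3 was called.

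The genes whose peak counts over the 6 libraries were most like those of a member were taken from 20547 genes with a mean of at least 5 peaks and no window in common with a member, by Pearson r of log2(scaled peaks + 1). For Ehf these were Rfx6 (r = 0.995), Gad2 (r = 0.990) and Serinc5 (r = 0.989), which shared its low value in mesenchyme library 1: Rfx6 had 12, 12 and 9 peaks in epithelium and 3, 9 and 10 in mesenchyme. For Elf5 they were Abi1 (r = 0.991), Cdca4 (r = 0.980) and Olfr560 (r = 0.980), and for Elf3 Fgfrl1 (r = 0.984), Nkd2 (r = 0.981) and Acer3 (r = 0.979). For Spdef they were Figla (r = 0.994), Taf1c (r = 0.993) and Aldh16a1 (r = 0.992), and Taf1c had 105, 103 and 105 peaks in epithelium and 123, 133 and 124 in mesenchyme. With 6 libraries and this many genes such values of r are a description only, and none of the 12 genes passed limma by peaks.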

How the data were processed

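Upstream steps are taken from the study's methods and the tool names in the labels. The authors used Trimmomatic 0.38 for trimming, Bowtie2 for alignment to mm10, SAMtools for duplicate removal and MACS2 2.1.1 for calling peaks in each library, on fragments under 100 bp. deepTools 2.0 is also named. The threshold for a peak was not given in the sources used here. A deposited list has 3 columns (chromosome, start, end) and no score. The study's own comparison used reads, which peak lists do not hold.

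Genes came from GENCODE M21. Peaks on chromosomes 1 to 19, X and Y were scaled to the mean list (311395 peaks, 151 Mb). limma 3.58.1 in R 4.3.3 (mean trend, no replicate block) tested log2(scaled peaks + 1) and log2(scaled bp + 200) over the 21736 genes that averaged 1 peak or more, with Benjamini-Hochberg adjustment and a threshold of 0.05. Such differences understate the change of genes with few peaks. On simulated peak counts the test recovered 75 of 100 genes changed 2-fold and 99 of 100 changed 4-fold, with 11 unchanged genes called. These counts were drawn independently for each gene, with counting noise as the only spread between replicates and no peaks shared by overlapping windows. The recovery may therefore be lower in the real lists, and covered bases were not simulated. Libraries are labelled biological replicates, and p-values measure the spread between them. Alternatives covered scaling, pseudocount, filter, window, assignment, list length, replicate block, region rules and left-out libraries.

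Members and lists were chosen with earlier results of these data known. Named genes were the 4 members, ETS genes past the test or with the 3 largest or smallest differences by peaks, Grhl1 to Grhl3, genes that start in a window, and the 3 most correlated genes per member. Tissue-only regions and motifs had no test.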

Additional observations from a re-analysis of the deposited data

How the results depend on the processing

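By peaks no member was called under any alternative run, and the Ehf difference stayed positive in each. Without scaling, which moved the median of all genes by covered bases to −0.12, the Elf3 log2 difference in covered bases was −0.04 and the Ehf call was lost (0.71, limma adjusted p = 0.0736), as it was with no filter on low values (0.82, adjusted p = 0.179). The Spdef call by covered bases was lost with the gene body and 10 kb (−0.28, adjusted p = 0.343), where its difference by peaks was 0.11. Near-zero differences by peaks changed sign: Elf3 to 0.12 with peaks given to the nearest start site only and 0.09 with equal list lengths, and Elf5 to −0.06 without scaling, −0.05 with the gene body and 10 kb, −0.23 with the gene body and 50 kb and −0.23 with the nearest start site only. With 1 library left out, differences by peaks ran from −0.04 to 0.04 for Elf3, 0.30 to 0.86 for Ehf, −0.11 to 0.08 for Elf5 and −0.32 to −0.12 for Spdef, and by covered bases from 0.03 to 0.13, 0.43 to 1.12, 0.02 to 0.43 and −0.53 to −0.36 in that order of genes. The cause was not tested.

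Numbers of genes called moved more. By peaks, 324 were higher and 356 lower in epithelium, against 31 and 16 without scaling, 212 and 215 scaled by chromosome, 0 and 1 with no filter, 19 and 0 with the gene body and 10 kb, 174 and 155 with 50 kb, and 47 and 13 with the nearest start site only. With 1 library left out they ran from 156 to 287 higher and 142 to 274 lower. By covered bases, 1322 and 1604 became 321 and 480 without scaling, 508 and 648 with no filter, and 300 and 160 with the gene body and 10 kb, and ran from 743 to 1019 and 900 to 1498 with 1 library left out. Deviations of same-numbered libraries from their tissue means were nearly uncorrelated over genes (r = 0.0179, 0.0494 and −0.00903). Such values cannot decide whether same-numbered libraries came from the same shelves, which the labels do not state. With the replicate block 427 genes were higher and 573 lower by peaks, and the Ehf and Spdef differences by covered bases kept their calls (adjusted p = 0.0348 and 0.00244).

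Tissue-only counts, epithelium before mesenchyme, became 5 and 9 at Elf3, 7 and 3 at Ehf, 7 and 7 at Elf5, 1 and 12 at Spdef, and 19 and 28 in all where 2 of 3 libraries sufficed. With 1 peak allowed in the other tissue they were 13 and 17 in all, with 4 and 6 at Elf3, 1 mesenchyme region at Elf5 and 10 at Spdef. With the gene body and 10 kb they were 4 and 0 in all, 0 and 0 at Elf3, 1 for epithelium at Elf5 and 0 for mesenchyme at Spdef. Equal list lengths gave 2 epithelium regions at Elf3 and 1 mesenchyme region at Elf5. With 1 library left out they ran from 8 to 13 and 5 to 14 in all, 1 to 4 and 1 to 5 at Elf3, 3 to 5 and 0 to 2 at Ehf, 4 to 6 and 0 to 4 at Elf5, and 0 to 1 and 4 to 8 at Spdef.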
